A study of Mus musculus with 28 samples.

Results

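The 44 genes described here make the machinery of mitosis: the kinases and cyclins that start it, the proteins of the kinetochore, the checkpoint and the spindle, the proteins that let sister chromosomes part, and the condensin subunits with Top2a. The proliferation marker Mki67 and the transcription factor Foxm1 were counted with them. They were taken by gene name from a list of mitotic genes, and each name matched 1 of the 50600 genes of the deposited table. All 44 averaged 1 or more and so were among the 13230 genes tested, and none was at 0 in any of the 28 libraries.

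RNA-seq was done on mouse embryonic fibroblasts (MEFs), primary cells grown from embryos, and on the same kind of cells during their conversion to induced pluripotent stem cells by retroviral Oct4, Klf4 and Sox2 (OKS). There were 14 groups of 2 libraries. Of the MEFs, 1 group had no treatment and 1 was treated with SB203580, an inhibitor of the p38 MAP kinases (p38i). The other 12 groups were cells on days 1, 3, 5 and 7 of OKS induction in 3 conditions: the control, which the paper calls DMSO, p38i added during the induction, and pre-p38i, in which the MEFs had p38i before the induction. The induction groups let the effect of the inhibitor be compared between the phases in which it was given. All libraries carry the genotype label WT, and the study's MEFs held OG2, a green fluorescent reporter of the Oct4 gene. The labels and the paper differ on the medium of the MEFs, on the RNA extraction and on the library kit. Neither states whether the 2 libraries of a group came from separate cultures, so p-values here measure the spread between libraries, which may be technical.

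In background terms, Cdk1 bound to a B-type cyclin starts mitosis, and the condensins and Top2a compact and untangle the chromosomes. Kinetochores assemble on the centromere protein Cenpa and hold the spindle through the Ndc80 complex, and unattached kinetochores keep the checkpoint proteins active, which hold back Cdc20 and the anaphase-promoting complex. Most of these genes are transcribed in late S, G2 and M phase, so that a dividing culture holds more of their RNA than a resting culture, and cells that fail to divide after mitosis carry a doubled genome.

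Values are in TPM, transcript counts scaled for gene length and to a common library total. This unit was read from the table, in which each library holds whole numbers with a total from 991287 to 992537, and between 12454 and 14170 genes of a library were at 1 or more. A step of 1 is coarse for Knl1, Cenpk, Cenpf, Kif18a and Cenpi, whose means over all libraries were 5.11, 5.18, 7.43, 7.79 and 9.57 TPM. The largest means were those of Ube2c, Cdk1, Top2a, Cdc20 and Bub3, at 226, 188, 112, 111 and 111 TPM. Of 10 fibroblast markers, Col1a1 was at a mean of 4016 TPM, Vim at 5645 TPM and Thy1 at 378 TPM in untreated MEFs, while Dcn was at 7 TPM and Lum was listed at 0 in both libraries. The summed value of these 10 markers went from a mean of 16201 TPM in untreated MEFs to 3842 TPM on day 7 in DMSO, 5097 TPM in p38i and 2747 TPM in pre-p38i. Most of it came from Vim, Col1a1, Fn1 and Col1a2, and between untreated MEFs and day 7 in DMSO the means of Dcn (7 to 103 TPM), Lum (0 to 42.5 TPM) and Col3a1 (265.5 to 302.5 TPM) went up.

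Summed over the 44 genes, mitotic RNA was lower on day 3 than on day 1 in every condition. By day 7 the mean sum was 0.90 times that of day 1 in DMSO, 1.35 times in pre-p38i and 0.58 times in p38i. The sum was 2685 and 2784 TPM in the libraries of untreated MEFs and 3259 and 3228 TPM in those of p38i-treated MEFs. In DMSO it was 2740 and 2759 TPM on day 1, 1564 and 1573 TPM on day 3, 1719 and 1791 TPM on day 5, and 2523 and 2429 TPM on day 7. The pre-p38i libraries started at 2744 and 2782 TPM, passed through 2288 and 2274 TPM on day 3 and 3107 and 3094 TPM on day 5, and ended at 3734 and 3728 TPM. Those with p38i started lower, at 2227 and 2261 TPM, and stood at 1275 and 1217 TPM, 1181 and 1151 TPM, and 1277 and 1311 TPM on the later days. From day 3 on, the libraries of the 3 conditions did not overlap on any day. The mean sum of pre-p38i was 1.23 times that of p38i on day 1, 1.83 times on day 3, 2.66 times on day 5 and 2.88 times on day 7. In such bulk libraries, fewer cells in mitosis and less of these RNAs per cell cannot be told apart.

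**Figure D1:**
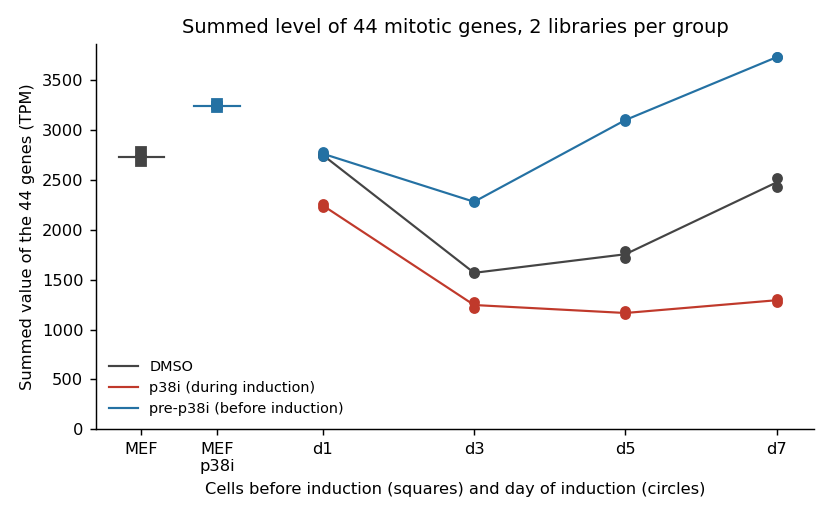
Summed TPM of the 44 genes (vertical axis, from 0) in each library: squares are MEFs without and with p38i, circles are days of induction (horizontal axis) and lines join the means of 2 libraries. The pre-p38i line ends at 3731 TPM, the DMSO line at 2476 TPM and the p38i line at 1294 TPM.

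The genes shared this course to a large extent, mainly from day 3 on. Group means were ordered p38i, DMSO, pre-p38i from the lowest for 21 of the 44 genes on day 1, 40 on day 3, and 44 on days 5 and 7. The p38i libraries lay below both pre-p38i libraries for 31 genes on day 1 (all genes 35.9%). On days 3, 5 and 7 they did so for 44 (all genes 45%, 42.4% and 39.1%). Of the 14 group means, the highest was that of pre-p38i on day 7 for 23 genes and that of p38i-treated MEFs for 18. The exceptions were Aurka, highest on day 1 in DMSO, Bub3, highest on day 1 in pre-p38i, and Pttg1, highest on day 3 in pre-p38i. The lowest group mean was in p38i for every gene, on day 5 for 24, on day 3 for 11 and on day 7 for 9. The highest group mean was between 1.63 times (Bub3) and 5.00 times (Cenpk) the lowest. The order of the conditions and the groups with the highest and lowest means were not counted over all genes.

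**Figure D2:**
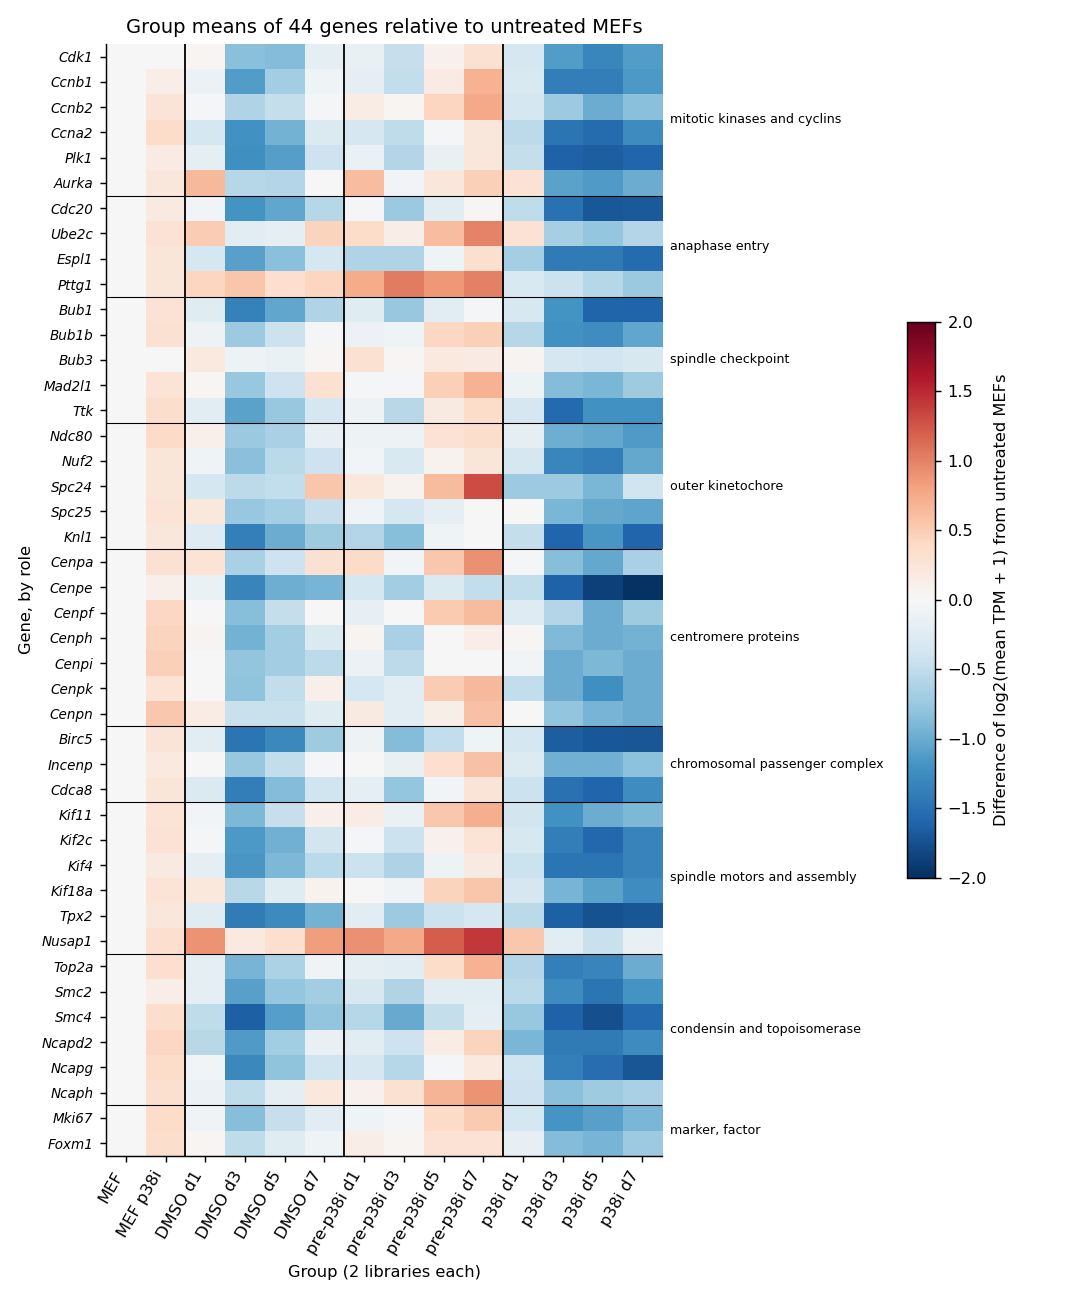
Group means of the 44 genes (rows, by role) in the 14 groups (columns), as the difference of log2(mean TPM + 1) from untreated MEFs, red for higher and blue for lower. The 3 later p38i columns are blue for all rows, palest in Nusap1 and Bub3, and the pre-p38i column of day 7 is red for 36 of the 44 rows.

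Mitotic genes often share promoter elements, so the promoters were read. RefSeq windows on GRCm38.p6, from 250 bases before to 50 bases after the transcription start, were found for 38 of the 44 genes; Ccna2, Foxm1, Incenp, Smc4, Spc24 and Tpx2 had none. The letters TTTGAA on either strand, the core of the cell cycle genes homology region (CHR) known from genes of G2 and M phase, were in the windows of 25 of the 38 (65.8%), compared with 20.2% of the 27025 genes with a window. Within 50 bases of the start on either side they were found for 22 of the 38 (57.9%), compared with 5.72% of all genes. CCAAT, the element that NF-Y binds, was in 28 windows (73.7%, all genes 41.1%), and both were in 22 (57.9%, all genes 7.97%). The CHR variant TTTAAA was in 9 (23.7%, all genes 14.9%). Matches were counted on both strands, and the 3 searches were separate, with matches that touch or overlap counted in each. None of the 3 was in the windows of Kif18a, Mad2l1, Ncaph, Nuf2, Nusap1 and Pttg1.

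The 100 bases before the start are shown for 7 genes that hold TTTGAA or CCAAT there, to show where the elements lie, and for 2 with none of the 3 searched, for contrast, read 5′ to 3′ on the strand of the gene, with TTTGAA and its reverse complement TTCAAA in capitals, as are CCAAT and its reverse complement ATTGG. They lie at chr10:69352913-69353012 (Cdk1, minus strand), chr9:70421555-70421654 (Ccnb2, minus), chr4:118437344-118437443 (Cdc20, minus), chr15:102296193-102296292 (Espl1, plus), chr19:37376282-37376381 (Kif11, plus), chr11:99024190-99024289 (Top2a, minus), chr5:45669825-45669924 (Ncapg, plus), chr6:66535121-66535220 (Mad2l1, plus) and chr1:169531465-169531564 (Nuf2, minus). Each ends next to the start that RefSeq gives.
Cdk1: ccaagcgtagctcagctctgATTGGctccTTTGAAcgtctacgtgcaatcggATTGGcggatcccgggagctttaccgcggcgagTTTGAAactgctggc
Ccnb2: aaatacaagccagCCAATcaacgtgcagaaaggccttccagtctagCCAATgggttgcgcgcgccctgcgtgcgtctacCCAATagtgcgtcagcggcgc
Cdc20: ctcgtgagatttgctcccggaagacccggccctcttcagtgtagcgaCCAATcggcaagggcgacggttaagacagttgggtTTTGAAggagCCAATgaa
Espl1: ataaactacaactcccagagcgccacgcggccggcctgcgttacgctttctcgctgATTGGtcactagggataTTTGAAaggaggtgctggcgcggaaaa
Kif11: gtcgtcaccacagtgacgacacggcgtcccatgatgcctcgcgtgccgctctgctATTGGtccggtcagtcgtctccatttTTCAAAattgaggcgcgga
Top2a: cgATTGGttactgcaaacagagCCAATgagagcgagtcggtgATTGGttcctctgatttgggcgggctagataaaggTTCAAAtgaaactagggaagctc
Ncapg: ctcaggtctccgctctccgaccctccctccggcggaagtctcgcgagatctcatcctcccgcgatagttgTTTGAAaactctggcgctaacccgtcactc
Mad2l1: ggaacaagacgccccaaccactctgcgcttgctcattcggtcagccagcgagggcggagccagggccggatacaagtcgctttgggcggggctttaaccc
Nuf2: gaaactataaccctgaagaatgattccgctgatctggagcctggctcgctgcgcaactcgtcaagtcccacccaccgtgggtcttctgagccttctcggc
Genes with and without TTTGAA are given side by side. From day 1 to day 3 in DMSO the median log2 fold change was -0.87 for the 25 genes with it and -0.80 for the 13 matched genes without it, and for p38i against DMSO on day 7 it was -0.93 and -1.01. A match is a description of these letters and was not tested as a site.

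The 14 index genes, at least 1 from each role, are given in every library. Among the kinases and cyclins, Cdk1 was at 222 and 255 TPM in untreated and 234 and 247 TPM in p38i-treated MEFs. In DMSO it was at 234 and 254 TPM on day 1, 128 and 137 TPM on day 3, 134 and 128 TPM on day 5 and 207 and 210 TPM on day 7. On the same days, with the libraries of a day set apart by a slash, it was at 222/206, 171/176, 252/254 and 292/296 TPM in pre-p38i and at 190/188, 110/108, 104/87 and 101/117 TPM in p38i. The libraries of the 3 conditions did not overlap on any day, with pre-p38i between DMSO and p38i on day 1 and above both afterwards. Ccnb1, the cyclin that Cdk1 needs to enter mitosis, was at 117 and 112 TPM in untreated and 128 and 122 TPM in p38i-treated MEFs. Its DMSO libraries read 103/109, 49/56, 64/76 and 111/105 TPM on days 1, 3, 5 and 7, its pre-p38i libraries 101/99, 80/82, 122/134 and 194/177 TPM, and its p38i libraries 92/93, 42/45, 41/46 and 58/44 TPM. On day 7 every pre-p38i library was above every other library of this gene. Plk1, a kinase of mitotic entry and spindle assembly, was at 114 and 110 TPM in untreated and 122 and 129 TPM in p38i-treated MEFs. It was at 100/96, 49/46, 51/52 and 83/84 TPM in DMSO, at 98/107, 75/73, 97/104 and 129/133 TPM in pre-p38i, and at 84/77, 37/35, 36/34 and 38/35 TPM in p38i over the 4 days. In p38i the gene stayed below 40 TPM from day 3 on, and in no other condition was a library that low. Of the other members of this role, Ccnb2, Ccna2 and Aurka, the kinase of the spindle poles, followed the same order of conditions on days 5 and 7.

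Of the genes of anaphase, Cdc20, which activates the anaphase-promoting complex, was at 156 and 161 TPM in untreated and 178 and 182 TPM in p38i-treated MEFs. Over days 1, 3, 5 and 7 it was at 150/156, 72/66, 78/75 and 109/103 TPM in DMSO, at 146/167, 97/91, 141/133 and 157/166 TPM in pre-p38i, and at 104/118, 59/52, 49/47 and 50/48 TPM in p38i. Its level in DMSO on day 7 lay below both day 1 libraries, unlike that of Ccnb1. Ube2c, the ubiquitin-conjugating enzyme of the same complex, had the highest level of the 44 genes in pre-p38i on day 7, at 402 and 398 TPM. The separase Espl1 was among the low genes, at 15 and 15 TPM in untreated MEFs and 4 and 5 TPM in p38i on day 7. Pttg1, which encodes securin, the inhibitor of separase, took another course and is described with the genes that departed from the rest.

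Of the checkpoint genes, Mad2l1, which encodes the checkpoint protein that binds Cdc20, was at 53 and 58 TPM in untreated and 69 and 66 TPM in p38i-treated MEFs. It was at 57/57, 29/36, 43/40 and 70/67 TPM in DMSO, 54/55, 58/51, 75/80 and 92/89 TPM in pre-p38i, and 51/52, 31/29, 28/30 and 32/35 TPM in p38i. Both DMSO libraries of day 7 were above those of day 1. Ndc80, the outer kinetochore protein that touches the microtubule, was at 26 and 27 TPM in untreated and 32 and 38 TPM in p38i-treated MEFs. In the days of induction it was at 30/27, 15/16, 17/16 and 24/23 TPM in DMSO, 24/25, 25/24, 34/31 and 33/35 TPM in pre-p38i, and 24/22, 14/12, 12/13 and 12/11 TPM in p38i. The libraries of p38i-treated and untreated MEFs did not overlap for this gene, which was so for 41 of the 44 genes. Cenpa, the histone H3 variant of the centromere, was at 77 and 101 TPM in untreated MEFs and 103 and 118 TPM in p38i-treated MEFs. Its libraries over the 4 days were at 108/108, 58/55, 64/69 and 121/100 TPM in DMSO, 120/112, 85/86, 139/120 and 163/176 TPM in pre-p38i, and 85/89, 52/46, 43/44 and 56/57 TPM in p38i. Of the other centromere genes, the motor Cenpe had the lowest level in p38i on day 7 relative to day 1, at 19 and 18 TPM on day 1 and 6 and 6 TPM on day 7.

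Birc5, which encodes survivin, a subunit of the chromosomal passenger complex that corrects wrong attachments, was at 139 and 148 TPM in untreated and 173 and 169 TPM in p38i-treated MEFs. It was at 123/126, 52/51, 56/60 and 89/86 TPM in DMSO, 135/131, 80/76, 107/96 and 134/137 TPM in pre-p38i, and 123/102, 49/41, 46/41 and 48/38 TPM in p38i. In no group of the induction did its mean reach that of p38i-treated MEFs. Kif11, the kinesin that pushes the spindle poles apart, was at 28 and 28 TPM in untreated and 34 and 34 TPM in p38i-treated MEFs. Its values were 26/28, 17/12, 18/22 and 31/29 TPM in DMSO, 31/31, 25/26, 41/41 and 49/45 TPM in pre-p38i, and 19/24, 12/11, 14/13 and 15/14 TPM in p38i. Unlike those of Birc5, both pre-p38i libraries of days 5 and 7 were above every MEF library.

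Top2a, the topoisomerase that untangles sister chromatids, was at 135 and 130 TPM in untreated and 169 and 167 TPM in p38i-treated MEFs. Over the 4 days it was at 116/114, 66/72, 84/87 and 127/125 TPM in DMSO, 121/114, 118/107, 171/170 and 214/217 TPM in pre-p38i, and 89/87, 49/53, 57/48 and 63/69 TPM in p38i. On day 1, pre-p38i and DMSO overlapped and p38i was below both. Smc2, the ATPase shared by both condensins, was at 45 and 49 TPM in untreated and 50 and 53 TPM in p38i-treated MEFs. It was at 43/39, 20/23, 24/30 and 28/29 TPM in DMSO, 38/37, 31/30, 41/39 and 43/37 TPM in pre-p38i, and 32/32, 20/18, 15/18 and 18/22 TPM in p38i. No library of the induction was above the lower MEF library of Smc2. Ncapg, a subunit of condensin I, was at 21 and 26 TPM in untreated and 30 and 31 TPM in p38i-treated MEFs. During induction it was at 24/21, 9/9, 14/12 and 19/16 TPM in DMSO, 18/19, 16/15, 23/23 and 27/27 TPM in pre-p38i, and 17/18, 9/8, 8/7 and 6/7 TPM in p38i. On day 1 both treated conditions were at 19 TPM or less, below the DMSO libraries.

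Mki67, the gene of the proliferation marker Ki-67, was at 34 and 34 TPM in untreated and 45 and 43 TPM in p38i-treated MEFs. It was at 33/32, 18/19, 22/27 and 30/28 TPM in DMSO, 32/32, 34/33, 46/43 and 50/49 TPM in pre-p38i, and 27/26, 15/14, 16/15 and 17/18 TPM in p38i. The pre-p38i libraries showed no dip on day 3, in contrast with the other conditions. Foxm1, a transcription factor of G2 and M phase genes, was at 47 and 42 TPM in untreated and 60 and 54 TPM in p38i-treated MEFs. Its libraries were at 48/43, 32/30, 36/39 and 47/37 TPM in DMSO, 48/50, 44/48, 58/51 and 55/54 TPM in pre-p38i, and 40/39, 23/25, 22/24 and 27/26 TPM in p38i. After Bub3 it had the smallest range of the 44 genes, with the highest group mean 2.48 times the lowest.

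**Figure D3:**
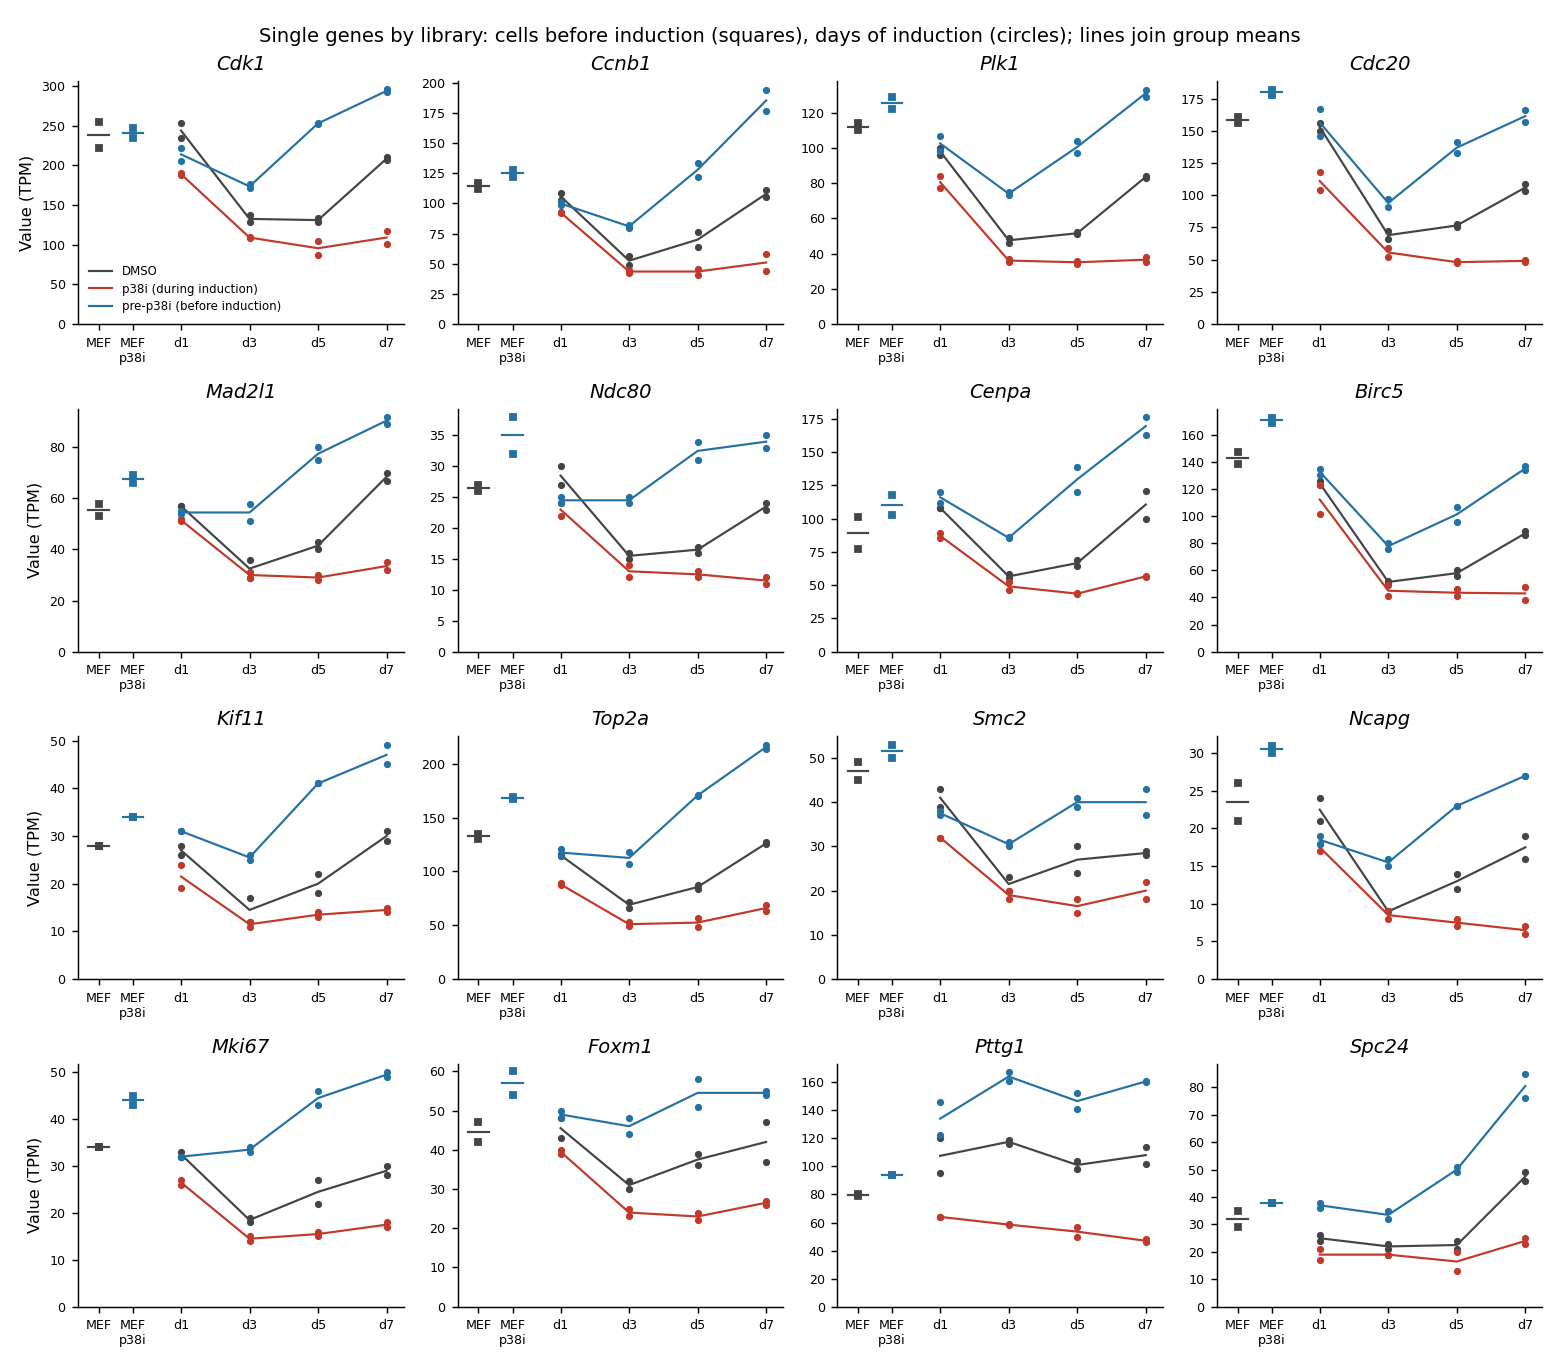
Values in TPM (vertical axes, from 0) of 16 genes in each library of MEFs (squares) and of days 1 to 7 of induction (circles), with lines through the means of 2 libraries. In every panel the pre-p38i line ends highest and the p38i line lowest on day 7.

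In MEFs without any reprogramming factor, p38i went with slightly higher levels of mitotic RNA. Of the 44 genes, 22 were higher in p38i-treated than in untreated MEFs and none was lower, by limma on log2(TPM + 1) at a Benjamini-Hochberg adjusted p under 0.05 over all 13230 genes. Of all genes tested, 9.73% were called higher and 8.15% lower. All 44 fold changes were above 0, with a median log2 fold change of 0.28 (all genes 0), and for 41 the libraries of the groups did not overlap, as for 25.4% of all genes in that direction. The called genes with the largest differences were the centromere genes Cenpn, at a log2 fold change of 0.53 ± 0.16 (SE, adjusted p = 0.0242 by limma), Cenpi at 0.47 ± 0.16 and Cenph at 0.44 ± 0.15. Top2a rose by 0.34 ± 0.07, Ndc80 by 0.38 ± 0.096, Ncapg by 0.37 ± 0.12, Mki67 by 0.36 ± 0.081, Foxm1 by 0.35 ± 0.10, Cenpa by 0.32 ± 0.11 and Mad2l1 by 0.28 ± 0.086 (log2 ± SE). Cdk1, at 0.015 ± 0.079, and Bub3 were the closest to 0. Ccnb1, Plk1, Cdc20, Birc5, Kif11 and Smc2 had differences of 0.13, 0.16, 0.18, 0.25, 0.27 and 0.13 that did not pass. The count was 7 when only these 2 groups were fitted and 9, 12, 6 and 9 without replicate 1 or 2 of untreated and replicate 1 or 2 of p38i-treated MEFs, and only the calls of Top2a, Ncapd2 and Mki67 held under every alternative. The summed value of 16 macrophage markers was lower with p38i, at 218 and 220 TPM compared with 316 and 335 TPM, and that of the fibroblast markers was 12332 and 12507 TPM compared with 15791 and 16611 TPM. In untreated MEFs, Lyz2 alone was at a mean of 153 TPM of the macrophage mean sum of 325.5 TPM. Cd163, Fcgr1, Aif1 and Ptprc were at 2 TPM or less in every library. Between untreated MEFs and day 7 in DMSO the mean of Csf1r went from 14 to 1 TPM and that of Marco from 0 to 39 TPM. Of the markers tested, 7 of 12 macrophage and 5 of 10 fibroblast genes were lower and none higher, and their part in the result was not tested.

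The first day of induction moved single genes in opposite directions. Between untreated MEFs and day 1 in DMSO, 6 of the 44 genes rose and 9 fell by limma, where 36.6% of all genes rose and 18.9% fell. The share of the 44 that fell was thus near that of all genes, and the share that rose was lower. Nusap1, a microtubule-bundling protein, rose by 0.89 ± 0.083, Aurka by 0.65 ± 0.07 and Ube2c by 0.50 ± 0.072 (log2 ± SE), while the condensin subunits Ncapd2 and Smc4 and the separase Espl1 fell, at -0.55, -0.51 and -0.36. Cenpa rose by 0.29, and Plk1 and Top2a fell, at -0.19 and -0.20. The other index genes did not pass: Cdk1, Ccnb1, Cdc20, Mad2l1, Ndc80, Birc5, Kif11, Smc2, Ncapg, Mki67 and Foxm1 lay between -0.20 and 0.10. Quantile normalization lowered the median of all genes in this comparison by 0.21, from 0.14 to -0.07, and gave 4 genes that rose and 18 that fell. Relative to the median of all genes, that of the 44 was -0.19 without and -0.15 with it. Of the markers tested, 7 of 10 fibroblast genes fell and 3 rose, and 5 of 12 macrophage genes fell and 2 rose, and their part was not tested.

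Between days 1 and 3 in DMSO the mitotic genes fell together. Of the 44, 42 fell and none rose, where 24% of all genes fell, and the median log2 fold change was -0.85 (all genes -0.01). Of these, 15 fell at least 2-fold, as did 3.14% of all genes. The largest falls were those of Birc5 (-1.26 ± 0.10, adjusted p = 3.97e-09 by limma), Ncapg (-1.23 ± 0.12) and Aurka (-1.22 ± 0.07). Cdc20, Plk1 and Ccnb1 followed at -1.14, -1.03 and -1.003, Cenpa, Smc2, Cdk1 and Kif11 at -0.92, -0.90, -0.88 and -0.87, Ndc80, Mad2l1, Mki67 and Top2a at -0.84, -0.80, -0.78 and -0.73, and Foxm1 at -0.54. Pttg1, at 0.14 ± 0.091, and Spc24, at -0.18 ± 0.14, did not pass. Of the calls, 32 held under every alternative. Over the same days 6 of 12 macrophage markers rose and none fell (median log2 fold change 0.68, all genes 20.5% higher). Their summed value went from 271 and 278 TPM to 447 and 458 TPM. Of 10 fibroblast markers, 5 fell and 3 rose. The part of either list of markers in the result was not tested.

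They came back in DMSO after day 3. Between days 3 and 5, 14 genes rose and none fell (all genes 13.8% higher, 5.57% lower), a count that was 1 with only the 2 groups, 8 without replicate 1 of day 3 and 7 without replicate 2 of day 5. Quantile normalization gave 9 that rose and 1, Pttg1, that fell. Between days 5 and 7, 32 rose and none fell, where 10.3% of all genes rose, with a median log2 fold change of 0.45 (all genes -0.05). Spc24 rose most, by 1.05 ± 0.14 (adjusted p = 1.71e-05 by limma), then Cenpa by 0.72 ± 0.11 and Mad2l1 by 0.71 ± 0.086. Plk1, Cdk1, Ccnb1, Birc5, Kif11 and Top2a rose by 0.69, 0.67, 0.62, 0.59, 0.57 and 0.55, and Ndc80, Cdc20, Ncapg and Mki67 by 0.49, 0.47, 0.40 and 0.24. Smc2 (0.083) and Foxm1 (0.15) did not pass, and the count was 15 with only the 2 groups. The summed macrophage markers were at 447 and 458 TPM on day 3, 493 TPM in both libraries on day 5 and 262 and 263 TPM on day 7 in DMSO, moving opposite to the mitotic genes after day 5. Of the fibroblast markers 7 of 10 fell between days 3 and 5 and none rose. Between days 5 and 7, 9 of 10 fell (all genes 16.4% lower) and none rose. The part of either list of markers was not tested.

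At the end of the course, more genes were called below than above their day 1 level in DMSO, and 13 of the 44 had a higher mean than on day 1. On day 7 compared with day 1 in DMSO, 4 genes were higher and 18 lower by limma, where 28.4% of all genes were higher and 26.1% lower. Those that were higher were Spc24 (0.90 ± 0.14), the condensin I subunits Ncapd2 (0.41) and Ncaph (0.32), and Mad2l1 (0.26). Cenpe, Tpx2, an activator of Aurka, and Spc25 fell most, at log2 fold changes of -0.79, -0.70 and -0.67. Cdc20, Smc2, Birc5, Ncapg, Ndc80, Plk1 and Cdk1 fell too, at -0.53, -0.51, -0.50, -0.35, -0.27, -0.23 and -0.22, and Ccnb1, Cenpa, Kif11, Top2a, Mki67 and Foxm1 did not pass, at 0.027, 0.026, 0.15, 0.13, -0.16 and -0.12. Without replicate 2 of day 7 the count of changed genes was 14 instead of 22. Of the fibroblast markers 8 of 10 were lower on day 7 and 1 higher, and of the macrophage markers 3 of 12 were lower and 2 higher, and their part was not tested.

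Cells from pretreated MEFs differed little from DMSO on day 1 and had more mitotic RNA later. On day 1, 3 genes were higher than in DMSO by limma and none lower (all genes 5.4% higher, 6.24% lower): Spc24 (0.55 ± 0.14), Pttg1 (0.32 ± 0.091) and Ncapd2 (0.32 ± 0.091). No call was left with only the 2 groups or without replicate 2 of pre-p38i, and 1 was left without replicate 1 of pre-p38i or replicate 2 of DMSO. The index genes lay between -0.27 (Ncapg) and 0.19 (Kif11). On day 3, 37 of the 44 were higher and none lower (all genes 13.8% higher, 6.87% lower), with a median log2 fold change of 0.59 (all genes 0.07). Cenpf, Mki67 and Ncaph led, at 0.84 ± 0.17, 0.82 ± 0.081 and 0.82 ± 0.087, and the count was 15 with only the 2 groups. Kif11, Mad2l1, Ncapg and Top2a were higher by 0.79, 0.73, 0.72 and 0.70, Plk1, Ndc80, Ccnb1, Birc5 and Cenpa by 0.63, 0.63, 0.62, 0.59 and 0.59, and Foxm1, Smc2, Cdc20 and Cdk1 by 0.55, 0.49, 0.44 and 0.39.

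On day 5 all 44 genes were higher in pre-p38i than in DMSO (all genes 14.3% higher), with a median log2 fold change of 0.84 (all genes 0.04). Spc24, Kif2c, a kinesin that removes tubulin from microtubule ends, and Kif11 led at 1.12 ± 0.14, 1.05 ± 0.11 and 1.01 ± 0.13 (log2 ± SE), and Bub3 was lowest at 0.32 ± 0.051. Of these, 5 were at least 2-fold higher, compared with 1.19% of all genes. The largest of the other index genes were Top2a (0.99), Plk1 (0.95), Cenpa (0.95), Cdk1 (0.94) and Ndc80 (0.94), followed by Mad2l1, Ccnb1, Mki67, Cdc20, Birc5 and Ncapg at 0.89, 0.87, 0.84, 0.83, 0.80 and 0.78, and by Smc2 and Foxm1 at 0.56 and 0.53. On day 7, 43 were higher (all genes 15.4% higher, 29.9% called either way), at a median of 0.61 (all genes 0.05), and Cenpk, at 0.55 ± 0.27 (adjusted p = 0.136 by limma), did not pass. Cenpn (0.84 ± 0.16), Ccnb2 (0.78 ± 0.12) and Top2a (0.77 ± 0.07) led, with Ccnb1 at 0.77 ± 0.10, Mki67 at 0.75 ± 0.081, Plk1 at 0.64 ± 0.063 and Cdk1 at 0.49 ± 0.079. Birc5, Kif11, Cenpa, Ncapg and Cdc20 were higher by 0.63, 0.63, 0.62, 0.60 and 0.60, and Ndc80, Smc2, Mad2l1 and Foxm1 by 0.51, 0.47, 0.40 and 0.38. For all 44 the pre-p38i libraries of day 7 lay above the DMSO libraries, as for 34.7% of all genes, and 28 passed when only the 2 groups were fitted. The summed macrophage markers were lower in pre-p38i on each day, at 99 to 101, 176 to 190, 105 to 112 and 43 to 55 TPM compared with 271 to 278, 447 to 458, 493 and 262 to 263 TPM in DMSO, with Cd163 at 0 in every library. The fibroblast markers were lower too, at 2679 and 2815 TPM compared with 3745 and 3938 TPM on day 7. Of 12 macrophage markers tested, 7, 9, 12 and 12 were lower than in DMSO on days 1, 3, 5 and 7 and none was higher. Of 10 fibroblast markers, 5, 7, 9 and 10 were lower, with 1 higher on day 1. Of all genes, 6.24%, 6.87%, 11.3% and 14.5% were lower on these days. The part of either list of markers in the result was not tested.

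Inhibitor present during the induction went the other way. The comparison uses the same DMSO libraries as the one with pre-p38i, so that both move if these libraries do. On day 1, 18 of the 44 genes were lower than in DMSO by limma and none was higher (all genes 12.6% lower, 3.47% higher), at a median log2 fold change of -0.29 (all genes -0.08). Pttg1 was the lowest, at -0.73 ± 0.091, then Kif18a, a kinesin that limits the swing of chromosomes, at -0.55 ± 0.15 and Bub1b, a checkpoint protein, at -0.48 ± 0.082. Cdc20, Top2a, Cdk1, Smc2, Ndc80, Plk1 and Mki67 were lower at -0.46, -0.38, -0.37, -0.35, -0.30, -0.28 and -0.28. Ncapg, Kif11, Cenpa, Foxm1, Ccnb1, Birc5 and Mad2l1 had values of -0.34, -0.32, -0.31, -0.20, -0.19, -0.15 and -0.14 that did not pass. The count was 9 under quantile normalization, 4 with only the 2 groups, 8 without replicate 1 of DMSO and 9 without replicate 1 of p38i. On day 3 it was 18 again (all genes 16.2% lower, 5.22% higher), at a median of -0.26 (all genes -0.08), with Pttg1 at -0.99 ± 0.091, Aurka at -0.49 ± 0.07 and Ttk, a checkpoint kinase, at -0.49 ± 0.12. Top2a, Plk1, Foxm1, Mki67, Cdc20 and Cdk1 were lower at -0.43, -0.39, -0.36, -0.33, -0.31 and -0.28, and the other index genes did not pass, between -0.29 (Kif11) and -0.076 (Ncapg). Quantile normalization, which raised the median of all genes by 0.12 in this comparison, gave 12 lower and 1 higher, Cenpf, and with only the 2 groups 2 passed. Of 10 fibroblast markers 6 were lower on day 1, and 8 were lower and 1 higher on day 3. Of 12 macrophage markers 3 were lower and 1 higher on day 1, and 8 were lower on day 3, when their sum was 250 and 264 TPM compared with 447 and 458 TPM in DMSO. The part of either was not tested.

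On day 5, 40 genes were lower in p38i than in DMSO and none higher (all genes 18.7% lower, 7.87% higher), at a median log2 fold change of -0.58 (all genes -0.08), and relative to the median of all genes the median of the 44 was -0.50 with and without quantile normalization, which raised that median by 0.10. Pttg1, Cenpe and Kif18a were lowest at -0.91 ± 0.091, -0.89 ± 0.12 and -0.84 ± 0.15. Ncapg, Top2a, Smc2, Foxm1, Ccnb1, Cdc20 and Mki67 were lower at -0.72, -0.70, -0.68, -0.68, -0.67, -0.66 and -0.62, Cenpa, Plk1, Kif11, Mad2l1, Cdk1, Birc5 and Ndc80 at -0.60, -0.54, -0.53, -0.50, -0.46, -0.41 and -0.37, and the count was 12 with only the 2 groups. On that day 5 of 10 fibroblast markers were lower and 3 higher, and 9 of 12 macrophage markers were lower and 1 higher, with a sum of 224 and 234 TPM compared with 493 TPM in DMSO. On day 7 all 44 were lower by limma, where 17.6% of all genes were, at a median of -0.95 (all genes 0), and for all 44 the p38i libraries lay below the DMSO libraries, as for 30.3% of all genes. Of them, 16 were at least 2-fold lower, compared with 3.92% of all genes. Kif18a (-1.32 ± 0.15), Ncapg (-1.30 ± 0.12) and Espl1 (-1.19 ± 0.14) were lowest, and the 4 genes of anaphase entry, Cdc20, Ube2c, Espl1 and Pttg1, were each at least 2-fold lower. Plk1 was at -1.17 ± 0.063 (adjusted p = 8.47e-11 by limma), Ccnb1 at -1.08 ± 0.10, Birc5 at -1.02 ± 0.10 and Mad2l1 at -1.01 ± 0.086, and Kif11 stood at 15 and 14 TPM compared with 31 and 29 TPM. Ndc80, Cenpa, Cdk1, Top2a, Mki67, Foxm1 and Smc2 were at -0.97, -0.95, -0.93, -0.92, -0.70, -0.64 and -0.50, Cdc20 at -1.10 and Bub3, the nearest to 0, at -0.34. The macrophage markers summed to 207 and 243 TPM in p38i and 262 and 263 TPM in DMSO on day 7, and the fibroblast markers to 5079 and 5114 TPM and 3745 and 3938 TPM. Of the markers tested, 6 of 12 macrophage genes were lower and 1 higher, and 4 of 10 fibroblast genes were higher and none lower (all genes 16.5% higher). The part of either on days 5 and 7 was not tested.

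**Figure D4:**
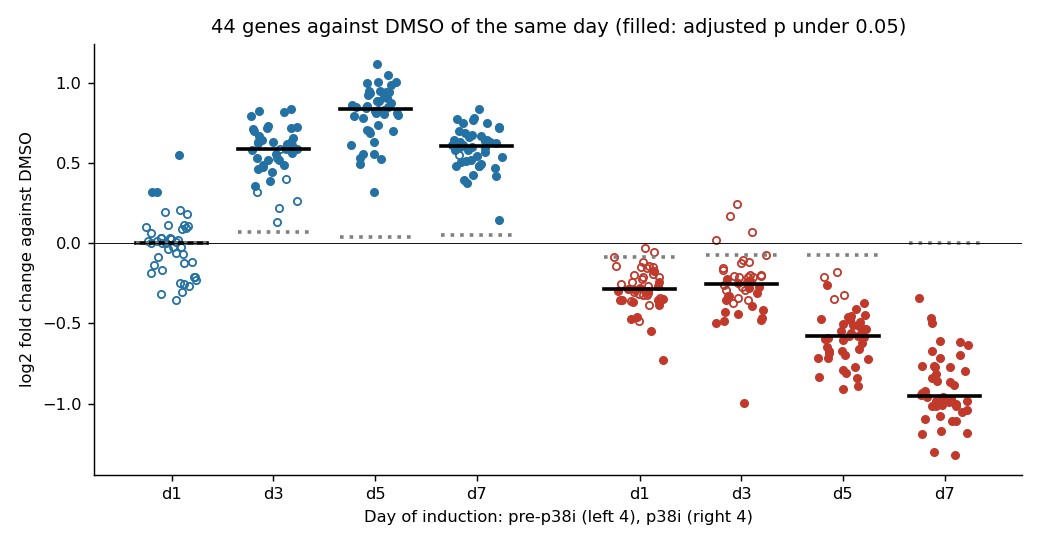
Log2 fold changes against DMSO of the same day (vertical axis) of the 44 genes in pre-p38i and in p38i on days 1, 3, 5 and 7 (horizontal axis), filled where the adjusted p was under 0.05. Black bars are the medians of the 44, which reach 0.84 on day 5 in pre-p38i and -0.95 on day 7 in p38i, and dotted bars are the medians of all genes tested.

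Set against each other, the 2 schedules of the same inhibitor differed for nearly every gene from day 3 on. In p38i compared with pre-p38i, 22 genes were lower on day 1 and none higher by limma (all genes 19.9% lower, 8.25% higher), a count of 10 with only the 2 groups and 14 without replicate 1 of p38i. On day 3 it was 43 (all genes 31.4% lower), all but Cenph, and on days 5 and 7 it was 44 (all genes 31.1% and 29.5% lower). Quantile normalization raised the median of all genes by 0.21 on day 3 and 0.14 on day 5. At least 2-fold lower were 41 genes on day 5 and 42 on day 7, compared with 7.98% and 7.62% of all genes, and on day 7 the median log2 fold change was -1.55 (all genes -0.05). All 44 calls of day 7 held under every alternative. Ncapg, at 6 and 7 TPM compared with 27 and 27 TPM, was lowest at -1.90 ± 0.12, then Espl1 at -1.86 ± 0.14 and Ccnb1 at -1.85 ± 0.10. Plk1, Cdc20, Top2a, Birc5, Kif11, Cenpa, Ndc80, Mki67, Cdk1 and Mad2l1 were at -1.82, -1.70, -1.69, -1.64, -1.63, -1.57, -1.49, -1.45, -1.43 and -1.41. Foxm1 and Smc2 were at -1.01 and -0.97, and Bub3 was at -0.49. On day 7 all 10 fibroblast markers (median log2 fold change 0.91) and 11 of 12 macrophage markers (1.10) were higher in p38i than in pre-p38i, with sums of 5079 and 5114 TPM compared with 2679 and 2815 TPM, and of 207 and 243 TPM compared with 43 and 55 TPM. On day 5, 5 fibroblast and 4 macrophage markers were higher and 2 and 1 lower. On day 3, 3 and 3 were higher and 6 and 4 lower, and on day 1, 3 and 7 were higher and 4 and 1 lower. Of all genes, 10.7%, 16.3% and 24.8% were higher on days 3, 5 and 7. The share of macrophage markers that was lower on day 3 was near that of all genes. The part of either list of markers in the result was not tested.

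The change from day 1 to day 7 differed between the conditions by its own test. Within p38i, 42 genes were lower on day 7 than on day 1 and none higher (all genes 22% lower), and within pre-p38i 32 were higher and 1, Bub3, lower (all genes 36.1% higher, 27.5% lower). Cenpe, Birc5 and Ncapg fell most in p38i, at log2 fold changes of -1.48, -1.37 and -1.31, and Spc24, Cenpk and Espl1 rose most in pre-p38i, by 1.10, 1.00 and 0.92. Cdc20, Plk1, Ndc80, Ccnb1, Cdk1, Smc2, Cenpa and Mad2l1 fell in p38i at -1.16, -1.12, -0.94, -0.86, -0.79, -0.66, -0.61 and -0.61, and Mki67, Foxm1, Kif11 and Top2a at -0.57, -0.56, -0.53 and -0.41. In pre-p38i Ccnb1, Top2a, Mad2l1, Mki67, Kif11 and Cenpa rose by 0.88, 0.87, 0.72, 0.61, 0.58 and 0.54, and Ncapg, Cdk1, Ndc80 and Plk1 by 0.52, 0.46, 0.46 and 0.35, while Foxm1, Smc2, Cdc20 and Birc5 did not pass at 0.15, 0.087, 0.048 and 0.027. The interaction with DMSO (the day 1 to day 7 change minus that in DMSO) passed for 35 genes in p38i, all negative, where it was negative and passed for 7.55% of all genes. It passed for 34 genes in pre-p38i, all positive, where it was positive and passed for 7.25% of all genes. In p38i Ncapg, Bub1, a checkpoint kinase, and Plk1 had the largest interactions, at -0.96 ± 0.16, -0.93 ± 0.20 and -0.89 ± 0.089. In pre-p38i they were those of the kinetochore scaffold Knl1, the chromosome motor Kif4 and Espl1, at 1.04 ± 0.32, 0.97 ± 0.22 and 0.92 ± 0.20. Knl1 was at 7/6 TPM on day 1 and 4/5 TPM on day 7 in DMSO, and at 5/5 and 8/8 TPM in pre-p38i. Cenpk was at 4/5 and 11/9 TPM in pre-p38i on these days. A step of 1 is coarse for both genes. Quantile normalization lowered the median of all genes by 0.16 within p38i and 0.13 within pre-p38i, and relative to that median the 44 genes stood at -0.90 and -0.82 in p38i and at 0.39 and 0.41 in pre-p38i, without and with it. Of 10 fibroblast markers over the same days, 6 were lower and 3 higher within p38i and 9 were lower within pre-p38i. Of 12 macrophage markers, 3 were lower and 3 higher within p38i and 6 were lower within pre-p38i. Within p38i the macrophage shares, and that of fibroblast markers that were higher, were near or below those of all genes (22% lower, 32.8% higher). The interaction passed for 8 fibroblast markers in p38i, all positive (median 0.74, all genes 14.1% positive), and for 1 macrophage marker in each direction. In pre-p38i it passed for 5 fibroblast and 4 macrophage markers, all negative (all genes 9.43% negative). Their part in the result was not tested.

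**Figure D5:**
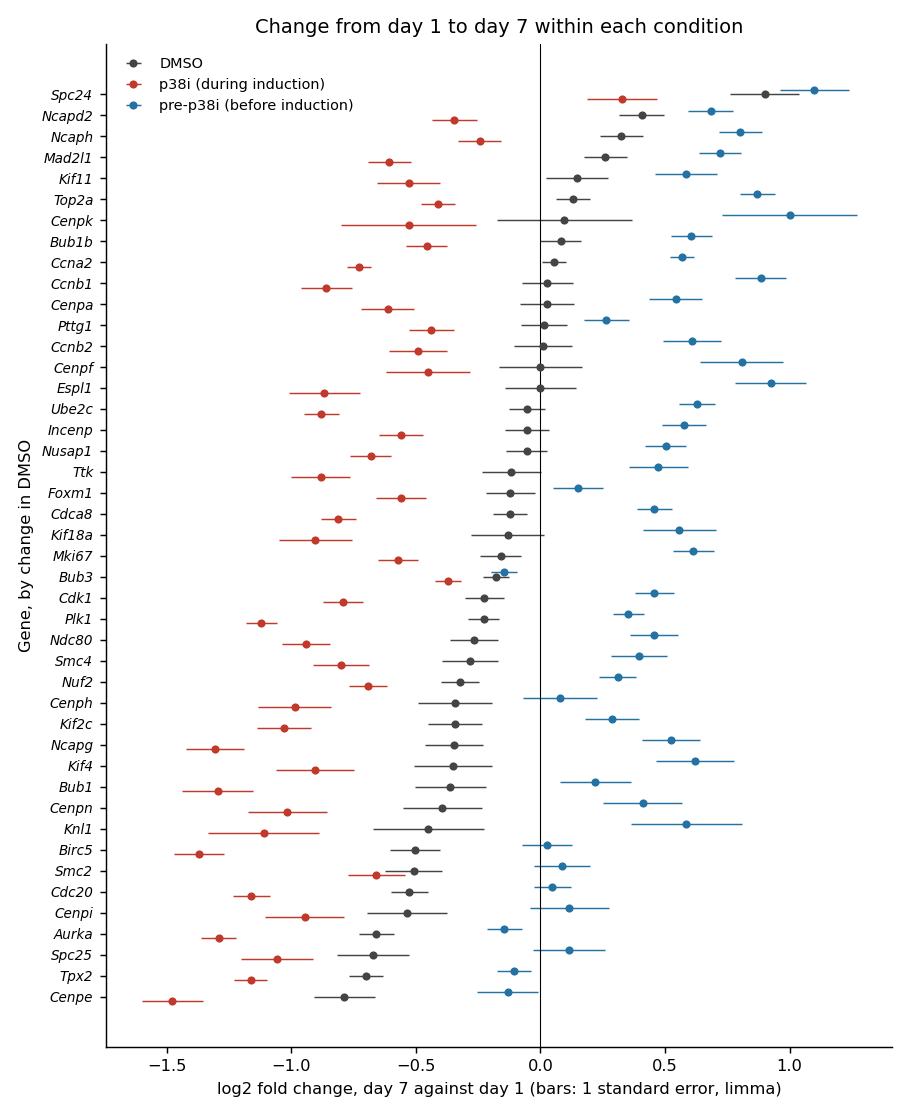
Log2 fold change from day 1 to day 7 (horizontal axis, bars 1 SE by limma) of each of the 44 genes (rows, by the change in DMSO) in DMSO, p38i and pre-p38i. In p38i all but Spc24 lie below 0, and in pre-p38i 40 of 44 lie above 0.

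The start of the induction also differed with the pretreatment for a few genes. Between p38i-treated MEFs and day 1 in pre-p38i, 29 genes fell and 4 rose by limma (all genes 20.7% lower, 35.3% higher), compared with 9 and 6 between untreated MEFs and day 1 in DMSO. Quantile normalization lowered the median of all genes by 0.18 in the former, and relative to it the median of the 44 was -0.41 with and -0.46 without it. The difference between these changes passed for 5 genes, all more negative after pretreatment (all genes 4.36%), which were Ncapg (-0.64 ± 0.16), Ndc80 (-0.59 ± 0.14), Ube2c (-0.43 ± 0.10), Mki67 (-0.38 ± 0.11) and Ccna2 (-0.36 ± 0.068). The count was 3, 2, 1 and 3 without replicate 1 of untreated MEFs, replicate 2 of p38i-treated MEFs, replicate 1 of DMSO day 1 and replicate 1 of pre-p38i day 1, and only Ccna2 passed under every alternative. The same difference passed for 2 of 10 fibroblast markers, both positive (all genes 3.59% positive), and 1 of 12 macrophage markers, negative. The part of these markers was not tested.

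A few genes departed from the common course. Bub3, the checkpoint partner of Bub1, was at 109 and 114 TPM in untreated MEFs, 108 and 99 TPM on day 3 in DMSO, 128 and 122 TPM on day 7 in pre-p38i and 88 and 90 TPM on day 7 in p38i, with the narrowest range of the 44 genes. Pttg1 was at 79 and 80 TPM in untreated MEFs, and in DMSO at 95/120, 119/116, 98/104 and 114/102 TPM over the 4 days, with no dip on day 3. It was at 122/146, 167/161, 141/152 and 160/161 TPM in pre-p38i and 64/64, 58/59, 50/57 and 48/46 TPM in p38i. The 3 conditions were thus apart from day 1 on for this gene, as they also were for Cdk1, Ccnb1, Bub3, Cdca8, Ncapd2 and Ncaph. The ratio of Pttg1 to Espl1, securin to separase, was 5.27 and 5.33 in untreated MEFs, 17.0 and 19.3 on day 3 in DMSO and 9.50 and 9.27 on day 7.

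Spc24 and Spc25 encode partners in the Ndc80 complex and took unlike courses. Spc24 was at 35 and 29 TPM in untreated MEFs, and at 26/24, 21/23, 21/24 and 46/49 TPM in DMSO, 38/36, 32/35, 51/49 and 76/85 TPM in pre-p38i and 21/17, 19/19, 20/13 and 23/25 TPM in p38i. Spc25 was at 49 and 47 TPM in untreated MEFs, and at 56/55, 25/31, 31/28 and 33/36 TPM in DMSO, 40/50, 43/32, 43/41 and 48/49 TPM in pre-p38i and 44/51, 27/23, 24/22 and 19/26 TPM in p38i. From day 1 to day 7 the ratio of Spc24 to Spc25 moved from 0.464 and 0.436 to 1.39 and 1.36 in DMSO, from 0.950 and 0.720 to 1.58 and 1.73 in pre-p38i, and from 0.477 and 0.333 to 1.21 and 0.962 in p38i. The libraries of day 7 were above those of day 1 in each condition. For Ndc80 over Nuf2, the other pair of the complex, the ratio was 0.714 and 0.587 on day 1 and 0.649 and 0.697 on day 7 in DMSO, with overlap. In pre-p38i this ratio went from 0.522 and 0.568 on day 1 up to 0.589 and 0.625 on day 7. In p38i it went from 0.686 and 0.564 down to 0.545 and 0.478. The libraries of these days did not overlap in either condition. Nusap1, at 20 and 20 TPM in untreated MEFs, was at 40 and 36 TPM on day 1 and 36 and 37 TPM on day 7 in DMSO and at 56 and 54 TPM on day 7 in pre-p38i.

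Other genes of cell division, from lists drawn up for this description, were read beside the 44. For comparison, the medians of all genes were 0 in p38i and 0.05 in pre-p38i, with 17.6% of all genes lower and 16.5% higher in p38i, and 15.4% higher and 14.5% lower in pre-p38i. Of 29 other spindle and mitotic entry genes tested, 28 fell short of DMSO in the p38i libraries of day 7 by limma and 24 were higher in pre-p38i, with median log2 fold changes of -0.81 and 0.61. The cyclin Ccnf was the lowest in p38i, at -1.23. Of 27 other kinetochore and centromere genes, 14 were lower and 2 higher in p38i, and 16 were higher and 1 lower in pre-p38i, at medians of -0.55 and 0.57. Of 34 DNA replication genes, 31 were lower in p38i and 25 higher in pre-p38i, at medians of -0.75 and 0.43. Cdc45 and Gins1, of the replicative helicase, were the lowest in p38i, at -1.46 and -1.39. Of 16 cytokinesis and midbody genes, 11 were lower and 2 higher in p38i, and 10 were higher and 1 lower in pre-p38i, at medians of -0.79 and 0.46. Of 15 genes of cohesin and condensin II, 7 were lower in p38i and 10 higher in pre-p38i, at medians of -0.24 and 0.36. Of 15 subunits of the anaphase-promoting complex, the enzyme that Cdc20 and Ube2c serve, 2 were lower and 1 higher in p38i and 5 were higher and 1 lower in pre-p38i, at medians of 0.03 and 0.18. For p38i the share of these subunits that was lower is near that of all genes. Of the names on these lists, Cenps, Sgo1, Sgo2a, Sept7 and Sept9 matched no gene of the table, and Ccnb3 was under the filter. The differences between these lists and the 44 genes were not tested.

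For some genes the reads may be shared with others. At least 95% identity over 200 bases with a transcript of another gene was found for 10 of the 44, and for 6 of them (Ccna2, Cenpk, Kif4, Ncapd2, Ncapg and Ndc80) that gene was at 1 TPM or more in a library. Ccna2, Cdc20, Bub3, Cdca8, Kif4, Kif18a, Nusap1 and Ncapg overlap another tested gene, and neither the labels nor the paper say whether strand was used in counting. Their values are uncertain to that extent. For Ccnb1, Cdc20, Mad2l1 and Mki67 the similar genes that were listed were at 0.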

How the data were processed

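RNA-seq of 28 libraries in 14 groups was used. Per the submitters' processing notes, the authors used bcl2fastq, Bowtie2 2.2.5 and RSEM 1.3.0, with builds mm10 and hg38. The deposited values are whole numbers whose totals are nearly equal between libraries, and were read as TPM that the authors rounded down (treated as a score with steps of 1, not as counts). Depth is therefore unknown, and no count test was run. Values were analysed as log2(TPM + 1), so that fold changes understate those of low genes. Genes with a mean of at least 1 were tested two-sided under R 4.3.3 by limma 3.58.1, fitting the 14 group means and a moderated variance with a trend in level, with Benjamini-Hochberg adjustment over all genes tested and a threshold of 0.05. SE values are those of limma. The fit was tested on simulated data. Alternatives were a pseudocount of 0.1, no filter, a mean of at least 5, only the groups compared, a replicate block, quantile normalization and leaving out each library. The members, the lists and the tests were chosen with earlier results of these data known. Genes named with values were mainly 14 index genes and, per comparison, the 3 called members with the largest rise and fall. For the other lists they were the lowest in p38i on day 7 among the spindle and mitotic entry genes and the DNA replication genes. The genes described as departing from the course were chosen after their values were seen. Similar transcripts were sought with BLAST 2.17.0+, and promoters came from RefSeq on GRCm38.p6. Python 3.11.15, pandas 2.3.3 and matplotlib 3.10.9 were used for summaries and plots.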

Additional observations from a re-analysis of the deposited data

Results flagged for a closer look

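Among the mitotic genes, 3 sets of results differed between conditions by a test of the difference itself, the limma interaction on the log2 scale. Groups of 2 libraries are too small to look for single libraries far from the others. The interactions with p38i and with pre-p38i both subtract the same DMSO libraries.

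The change from day 1 to day 7 was more negative in p38i than in DMSO for 35 of the 44 genes. Among the index genes the difference was -0.96 for Ncapg, -0.89 for both Ccnb1 and Plk1, -0.87 for both Birc5 and Mad2l1, -0.68 for Kif11 and -0.67 for Ndc80. It was -0.64 for both Cdc20 and Cenpa, -0.57 for Cdk1, -0.54 for Top2a, -0.44 for Foxm1 and -0.41 for Mki67, while Smc2, at -0.15 ± 0.16, did not pass.

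The change from day 1 to day 7 was more positive in pre-p38i than in DMSO for 34 of the 44 genes. The difference was 0.87 for Ncapg, 0.86 for Ccnb1, 0.77 for Mki67, 0.74 for Top2a, 0.72 for Ndc80, 0.68 for Cdk1 and 0.60 for Smc2. It was 0.58 for Plk1, 0.57 for Cdc20, 0.53 for Birc5, 0.52 for Cenpa and 0.46 for Mad2l1, while Kif11, at 0.44 ± 0.18, and Foxm1, at 0.27 ± 0.14, did not pass.

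The change from MEFs to day 1 was more negative with p38i pretreatment than in DMSO for 5 genes, of which the index genes were Ncapg at -0.64, Ndc80 at -0.59 and Mki67 at -0.38. This comparison rests on 4 groups of 2 libraries, and leaving out replicate 1 of DMSO day 1 left 1 gene.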

How the results depend on the processing

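The counts of called members stayed within 1.5 times of those given under a pseudocount of 0.1, no filter, a mean of at least 5 and the replicate block. With only the groups compared, the counts became 7 (p38i in MEFs), 1 (days 3 to 5 in DMSO), 15 (days 5 to 7), 0, 15 and 28 (pre-p38i against DMSO on days 1, 3 and 7), 4, 2 and 12 (p38i against DMSO on days 1, 3 and 5) and 10 (p38i against pre-p38i on day 1). Under quantile normalization the count for p38i on day 1 was 9. Leaving out each library in turn gave 6 to 12 for p38i in MEFs, 7 to 13 for days 3 to 5 and 14 to 16 for days 1 to 7 in DMSO, 0 to 2 for pre-p38i and 8 to 12 for p38i on day 1, 14 to 18 for p38i against pre-p38i on day 1, and 1 to 4 for the difference at the start. The lone library of a group is then assumed to vary like the others. The fits of only the groups compared and those with a library left out held fewer libraries. The cause of these shifts was not tested.

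Some small values, none of them called, changed sign. Under quantile normalization they were Cdk1 at -0.013, Mad2l1 at -0.078, Ndc80 at -0.083 and Foxm1 at -0.092 from untreated MEFs to day 1 in DMSO, and Ncapg at 0.10 for p38i on day 3. Without single libraries the log2 changes ranged from -0.085 to 0.11 for Cdk1 with p38i in MEFs. From MEFs to day 1 in DMSO the range was -0.065 to 0.13 for Cdk1, -0.025 to 0.10 for Mad2l1, -0.20 to 0.092 for Ncapg and -0.048 to 0.11 for Foxm1. It was -0.072 to 0.24 for Smc2 and -0.018 to 0.32 for Foxm1 from day 5 to day 7 in DMSO, and -0.014 to 0.067 for Ccnb1, -0.11 to 0.16 for Cenpa and -0.29 to 0.048 for Foxm1 from day 1 to day 7. It was -0.012 to 0.073 for Top2a and -0.067 to 0.13 for Cdc20 in pre-p38i on day 1, -0.26 to 0.047 for Mad2l1 in p38i on day 3, and -0.049 to 0.14 for Cdc20 and -0.019 to 0.19 for Smc2 from day 1 to day 7 in pre-p38i.

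The replicate numbers did not pair the libraries: same-numbered libraries deviated together with correlations between -0.0838 and 0.0874 over 91 pairs of groups. With a replicate block the counts were 19 for p38i in MEFs, 15, 18, 38 and 43 for p38i and 2, 37, 44 and 43 for pre-p38i against DMSO on days 1, 3, 5 and 7. Depth could not be read from rounded TPM, and a step of 1 limits what can be seen in the lowest genes.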
